A study of Mus musculus with 8 samples.

Results

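Alveolar type 2 cell transcripts were followed here as 10 genes in RNA from mouse lung mesenchyme that had been sorted against Epcam. The 10 genes, Sftpa1, Sftpb, Sftpc, Sftpd, Lamp3, Abca3, Slc34a2, Napsa, Cxcl15 and Epcam, were chosen by symbol from the 31607 genes of the authors' deposited table, and no symbol was missing. Bulk RNA sequencing compared 4 HhipCKO with 4 Control libraries of lung mesenchymal cells from adult mice. HhipCKO mice carried Hhipflox/flox with creER drivers, among them Myh11creER, and Control mice carried Hhipflox/flox without a recombinase driver. All mice had received tamoxifen, which activates such drivers. The Myh11 promoter is active in smooth muscle. Live cells negative for CD45, CD31 and Epcam were sorted, while the extraction protocol in the labels speaks of cultured cells. Nothing in the labels states that each library came from a separate mouse, so p-values measure the spread between these libraries only.

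Alveolar type 2 cells are the epithelial cells that make pulmonary surfactant, the lipid and protein film that lowers surface tension in the air spaces. They assemble it in lamellar bodies, secrete and recycle it, and act as progenitors of the flat type 1 cells that carry gas exchange. Epcam is an adhesion protein on the surface of lung epithelium, and a sort against it is meant to remove these cells. The question here was how much RNA of these epithelial genes was present in the sorted mesenchyme, and whether it differed between the groups. In bulk RNA, fewer cells of a type and less RNA per cell cannot be told apart.

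Type 2 transcripts were present in the sorted cells at levels per kilobase that ran from the 36.9th percentile of all tested genes for Epcam to the 99.6th for Sftpc. Their mean was higher in HhipCKO for all 10 genes, but none of these differences passed the test. The 8 genes other than Abca3 and Epcam were 2.25-fold to 3.66-fold higher, with 95% intervals that all reached from below 1 to at least 13.2-fold. Abca3 and Epcam differed less, by 1.17-fold and 1.51-fold. These values lie inside all 8 of those intervals, and the separation of Abca3 and Epcam from the 8 genes was not tested. None of the 10 genes passed the threshold of 0.05 on the adjusted p that the authors' deposited table gives, while 6.98% of 17469 tested genes passed in either direction and 3.06% passed as higher in HhipCKO. At an unadjusted p under 0.05 the count was 0 as well, the lowest p of the 10 being 0.202 in the authors' deposited table. No second tool could be run, because the table holds no values per library. The median log2 fold change of the 10 genes was 1.47, beside 0.019 over all tested genes, of which 52.7% had positive values.

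**Figure D1:**
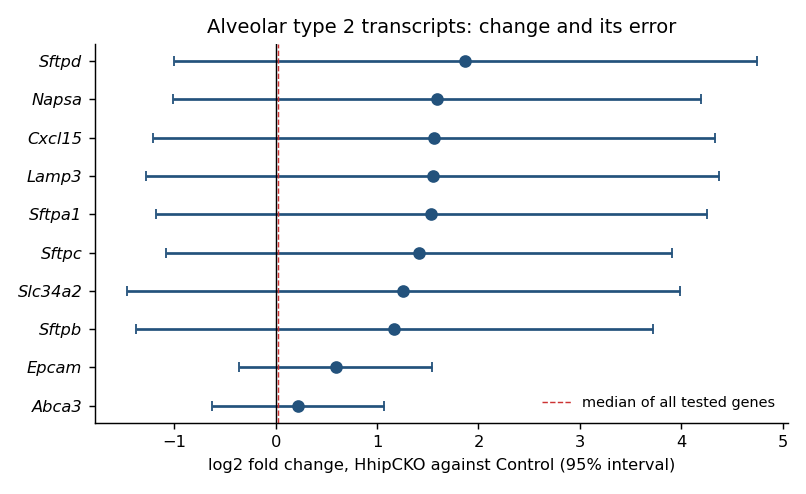
Log2 fold change of each alveolar type 2 transcript, HhipCKO against Control, from the authors' deposited table (points; bars are 95% intervals from the SE, 4 libraries per group), with the median of all tested genes as a dashed line. All 10 points lie to the right of 0 and all 10 intervals cross it, and Abca3 and Epcam lie nearer to 0 with shorter intervals.

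The targeted gene and the mesenchymal identity of the libraries were checked first. Hhip, the hedgehog-binding inhibitor that was deleted, is listed by the authors' deposited table at -2.62 ± 0.32 (log2 fold change and SE, adjusted p = 9.55e-13). Mean normalized counts, the unit of all levels below, are read counts divided by a library size factor and averaged over the 8 libraries, and they summed to 128669692. A list of 12 mesenchymal genes, among them Col1a1, Col1a2 and Col3a1 for fibrillar collagens and Pdgfrb and Cspg4 of mural cells, made up 3.15% of that sum. By the authors' deposited table, their log2 fold changes lay between -0.45 and 0.52 with SEs from 0.17 to 0.33, and none passed. Of the genes behind the sort, Ptprc (CD45), Pecam1 (CD31) and Epcam had mean normalized counts of 750, 816 and 655 in the authors' deposited table. The 10 type 2 genes together made up 0.169% of the sum, which is 217047 normalized counts.

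The files give no level per library, so levels are given as group means worked out from the mean normalized count and the fold change. Sftpc, which encodes the hydrophobic surfactant protein C and is made in the lung by type 2 cells, had a mean normalized count of 103822 in the authors' deposited table. Its implied group means were 56662 in Control and 150981 in HhipCKO. This 1 gene held 0.0807% of all normalized counts, where all 10 genes held 0.169%. Sftpb, the other hydrophobic surfactant protein, which is needed for lamellar body formation, had implied means of 17639 in Control and 39717 in HhipCKO. Sftpa1 and Sftpd encode the collectins of the surfactant, soluble lectins that bind microbes. The implied means of Sftpa1 were 13795 and 39936, and those of Sftpd 2651 and 9698, in Control and HhipCKO. For each of these 4 surfactant proteins the HhipCKO mean was more than 2-fold the Control mean.

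Transporters, lamellar body proteins and the remaining genes were also higher on average in HhipCKO, Abca3 least so. Slc34a2, the phosphate transporter that takes up phosphate freed from surfactant lipid, had implied means of 10353 in Control and 24728 in HhipCKO. Abca3, the lipid pump of the lamellar body membrane, had means of 12268 and 14307, a nearly level pair. Lamp3, a membrane glycoprotein of lamellar bodies, stood at 2991 and 8740. Napsa, an aspartic protease that helps to cut the precursors of surfactant proteins B and C, stood at 1430 and 4298. Cxcl15, the chemokine lungkine of mouse lung epithelium, stood at 5711 and 16879, and Epcam at 522 and 788. Summed over the 10 genes, the implied level was 124022 in Control and 310072 in HhipCKO, a ratio of 2.50.

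**Figure D2:**
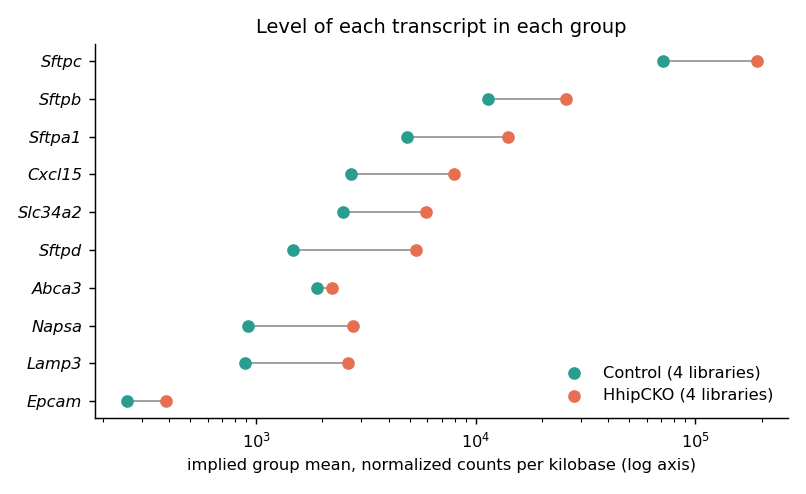
Implied group mean of each transcript in normalized counts per kilobase of the longest annotated transcript, on a log axis, for Control and HhipCKO (4 libraries each; no value per library is given in the file, so no error bars are drawn). The HhipCKO point lies to the right for every gene, and the pair is closest for Abca3.

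Levels between genes were compared per kilobase of the longest annotated transcript. On this scale Sftpc came first with 131088 normalized counts per kilobase, above 99.6% of tested genes, and Sftpb next with 18514. Sftpa1 had 9413 and Cxcl15 5310, while Slc34a2 and Sftpd had 4200 and 3413. Abca3, Napsa and Lamp3 followed with 2052, 1836 and 1748, a range narrower than the spread between libraries described below. Epcam came last with 321, a level 408-fold below Sftpc per kilobase, or 193-fold with the median annotated transcript length. The order depends on the length chosen below the first 3 genes. Under the median length, Slc34a2 had 9865 normalized counts per kilobase, above Cxcl15 at 5310, and Napsa had 4749, Sftpd 4004, Abca3 3536, Lamp3 1748 and Epcam 725.

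Set against genes of other cells and averaged over both groups, Sftpc was a prominent message of the sorted cells. Per kilobase its level was 7.57 times that of Ager, an abundant receptor of type 1 cells, 15.7 times that of Pdgfrb and 7.86 times that of Tcf21, a transcription factor of lung fibroblasts. With the median transcript length these ratios were 6.28, 16.7 and 7.16. The fibroblast receptor Pdgfra cannot be placed so firmly, because Sftpc stood at 4.06 times its level with the longest and 0.987 times with the median transcript. Col1a2 and Col3a1, at 173258 and 175390 normalized counts per kilobase of the longest transcript, lay above Sftpc with either length. Col1a1 was at 0.998 times the level of Sftpc with the longest and 13.0 times with the median transcript. The groups differed in this order. By implied means per kilobase of the longest transcript, Sftpc stood at 71543 in Control and 190633 in HhipCKO. Col1a1 stood at 135028 and 126721, and Ager at 19934 and 14708, in the same order of groups. In HhipCKO Col1a2 and Col3a1 stood at 171950 and 176883, below Sftpc on this scale. Relative to Sftpc per kilobase within the same group, Sftpb stood at 15.9% in Control and 13.5% in HhipCKO, Sftpa1 at 6.76 and 7.34%, and Lamp3 at 1.25 and 1.37%. Abca3 stood at 2.65% in Control and 1.16% in HhipCKO. Epcam stood at 0.358% and 0.203%. No test of these proportions is possible without values per library.

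The genes lie on 6 chromosomes of GRCm38 (GENCODE M21). Sftpa1 (chr14:41131782-41136452, plus strand) and Sftpd (chr14:41172214-41185149, minus strand) are close neighbours, and Sftpc (chr14:70520949-70524081) lies farther along the same chromosome. Abca3 (chr17:24351950-24410201) and Epcam (chr17:87635979-87651129) share chromosome 17 at a distance. Slc34a2 (chr5:53038081-53071664) and Cxcl15 (chr5:90794534-90803067) share chromosome 5. Sftpb (chr6:72304610-72314371), Napsa (chr7:44572380-44586862) and Lamp3 (chr16:19653378-19706375) stand alone on theirs.

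Promoter sequence was read for the 7 genes that RefSeq lists on GRCm38.p6 in the table used. They were Sftpa1, Sftpb, Lamp3, Abca3, Slc34a2, Cxcl15 and Epcam, each read as the 250 bases before its RefSeq start. This start can differ from that of the GENCODE coordinates above. The window lay partly inside the GENCODE gene for Sftpa1, Lamp3 and Abca3, and wholly inside it for Slc34a2 (chr5:53049103-53049352). Both strands were searched for TNAAGTG, a core bound by NKX2-1, the factor that defines lung epithelium, for TNTTTAC of FOXA factors, TTNNGCAA of C/EBP factors, and the TATA box TATAAA. Shown 5′ to 3′ on the strand of the gene, with matches in capitals, are 2 genes with several matches, then Sftpb and Abca3, which held none.
Sftpa1 (chr14:41131538-41131787, plus strand): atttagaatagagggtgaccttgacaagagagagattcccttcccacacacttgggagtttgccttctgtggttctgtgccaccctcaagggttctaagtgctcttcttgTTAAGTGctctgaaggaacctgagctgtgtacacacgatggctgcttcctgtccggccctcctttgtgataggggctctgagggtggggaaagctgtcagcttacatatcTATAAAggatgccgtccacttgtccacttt
Cxcl15 (chr5:90794284-90794533, plus strand): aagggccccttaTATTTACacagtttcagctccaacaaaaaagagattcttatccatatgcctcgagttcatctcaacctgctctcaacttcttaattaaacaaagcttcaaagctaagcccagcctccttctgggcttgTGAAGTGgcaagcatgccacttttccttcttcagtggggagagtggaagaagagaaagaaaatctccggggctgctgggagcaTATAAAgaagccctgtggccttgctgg
Sftpb (chr6:72304360-72304609, plus strand): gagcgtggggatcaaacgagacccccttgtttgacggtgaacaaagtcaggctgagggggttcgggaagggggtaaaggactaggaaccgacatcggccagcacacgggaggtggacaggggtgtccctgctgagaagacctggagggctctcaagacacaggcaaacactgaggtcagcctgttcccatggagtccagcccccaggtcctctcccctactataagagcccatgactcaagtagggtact
Abca3 (chr17:24351773-24352022, plus strand): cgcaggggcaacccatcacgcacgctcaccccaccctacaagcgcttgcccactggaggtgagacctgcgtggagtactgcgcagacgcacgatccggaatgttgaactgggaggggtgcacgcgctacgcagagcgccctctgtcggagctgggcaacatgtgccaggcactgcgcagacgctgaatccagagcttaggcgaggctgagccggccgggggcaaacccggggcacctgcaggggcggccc
The NKX2-1 core was found before Sftpa1 and Cxcl15, that is in 2 of 7 genes, and in 10.1% of the 32851 promoters of the table. The FOXA core was found before Lamp3 and Cxcl15, against 10.9% of all promoters. A C/EBP core, which reads the same on both strands there, was found before Slc34a2, against 9.56% of all promoters. The TATA box of Sftpa1 and that of Cxcl15 begin 30 and 27 bases before the start, and 12.4% of all promoters hold one. No match overlapped that of another motif in these genes. Epcam, like Sftpb and Abca3, held none of the 4 motifs in this window. A match is a description of the letters and was not tied to any value of the comparison.

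The error of the fold change was wide for most of the type 2 genes, with an SE above 1 on the log2 scale in 8 of 10. For Sftpc the authors' deposited table gives 1.41 ± 1.27 (log2 fold change and SE, adjusted p = 0.566), and 0.19 is its median SE over all tested genes. Its interval ran from 0.472-fold to 15.1-fold. Sftpd had the largest difference of the 10, listed by the authors' deposited table at 1.87 ± 1.47 (log2 fold change and SE, adjusted p = 0.493), with an interval from 0.499-fold to 26.8-fold. Others with an SE above 1 in the authors' deposited table were Sftpa1 at 1.53 ± 1.39, Sftpb at 1.17 ± 1.30, Lamp3 at 1.55 ± 1.44 and Slc34a2 at 1.26 ± 1.39 (log2 fold change, SE). Napsa and Cxcl15 are listed by the authors' deposited table at 1.59 ± 1.33 and 1.56 ± 1.42. For Abca3 and Epcam the authors' deposited table gives 0.22 ± 0.43 and 0.59 ± 0.48, with adjusted p of 0.820 and 0.517.

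These wide errors came at high counts. Under the negative binomial model each SE implies a coefficient of variation (CV) between libraries of 1 group beyond counting error, as estimated by the authors' fit. For the 8 genes with an SE above 1 it lay between 125% and 144%, against a median of 18.6% over all tested genes and of 14.3% over those averaging 500 normalized counts or more. Abca3 had an implied CV of 42.5% and Epcam one of 47.3%. Among those 12037 more abundant genes, 90 or 0.748% had an SE above 1 in the authors' deposited table. The 8 genes were all among them, each above the 99.6th percentile of SE in that range. With an SE of this size, a difference had to reach 13.2-fold for Sftpc and 19.5-fold for Sftpd to pass the threshold, against 2.40-fold for Abca3.  The 95% interval of Abca3 ran from 0.647-fold to 2.10-fold and that of Epcam from 0.781-fold to 2.91-fold.

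Implied CVs of abundant genes fell into 2 bands with a gap between them in the 2 count ranges examined. The edges of the gap were set separately for each range, after the values were seen. Genes averaging between 1000 and 3000 normalized counts, where Napsa lies, were not examined for a gap. Of 6865 tested genes averaging 3000 normalized counts or more, 6790 had an implied CV under 55%, 1 lay between 55 and 65%, and 74 lay above 65%. The type 2 genes other than Epcam, Abca3 and Napsa were all in the upper band of this range (Napsa and Epcam have lower mean counts), and Abca3 was near the upper edge of the lower one. Among genes with mean counts of 500 to 1000, where Epcam lies, 71 of 1563 were above a gap from 65 to 75%. Count models of the DESeq family draw a gene's dispersion towards a trend unless it lies far above it, in which case its own estimate is kept. The part of that step in setting Abca3 and Epcam apart was not tested. All 10 genes have a p-value in the authors' deposited table, whereas 150 genes have none, as happens when a single count is set aside as an outlier. Chil1, of the further type 2 genes described below, is among those 150.

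**Figure D3:**
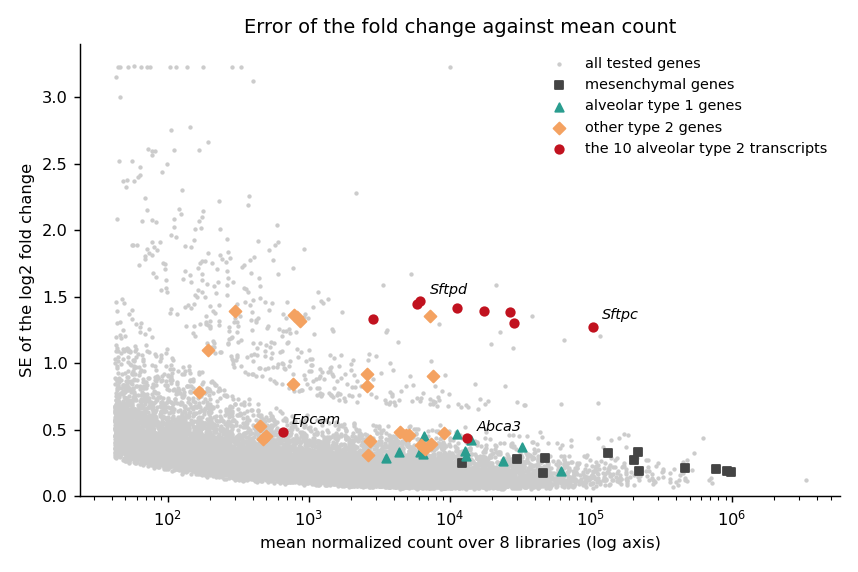
SE of the log2 fold change from the authors' deposited table against the mean normalized count over 8 libraries (log axis), for all tested genes and for 4 gene lists. Of the 10 alveolar type 2 transcripts, 8 sit between SEs of 1.27 and 1.47, in an upper band of few genes, and Abca3 and Epcam at 0.43 and 0.48 in the lower one, where all type 1 and mesenchymal genes lie.

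Further type 2 genes also ranged from narrow to wide errors. Of 24 listed, Dmbt1 was not analysed here, 22 were tested, none rose or fell, and Chil1 had no p-value. Values were positive for 18 of the 23 found, beside 52.7% of all tested genes. The median log2 fold change of the 23 was 0.70. Implied CVs were above 65% for 11 genes. These were Sfta2, Lgi3, Chil1, Hc, Egfl6, Muc1, Acoxl, Kcnj15, S100g, Slc26a9 and Bex2. The potassium channel Kcnj15 and the chitinase-like Chil1 are listed by the authors' deposited table at 1.42 ± 0.85 and 0.98 ± 0.90 (log2 fold change and SE), the former with an adjusted p of 0.327. Lpcat1, an enzyme that makes the main surfactant phospholipid, is listed by the authors' deposited table at 0.77 ± 0.47 with an adjusted p of 0.350. The transcription factor Cebpa and the junction protein Cldn18, which type 1 cells share, are listed by the authors' deposited table at 0.53 ± 0.31 and -0.19 ± 0.39. The epithelial regulators Nkx2-1, Foxa1 and Foxa2, named after their values were seen, have log2 fold changes of 0.23, 0.08 and -0.09 by the authors' deposited table, with implied CVs of 40.8, 43.9 and 41.9%.

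Other epithelial lists had medians near or below 0. All 12 type 1 genes had negative log2 fold changes, with a median of -0.52, and no SE above 0.47, by the authors' deposited table. The summed implied level of the type 1 genes was 227008 in Control and 163383 in HhipCKO, a ratio of 0.720. Akap5, a kinase-anchoring protein, was the 1 type 1 gene of 12 to pass, listed by the authors' deposited table at -0.98 ± 0.33 (log2 fold change and SE, adjusted p = 0.0439), beside 3.92% of all tested genes that passed as lower. It no longer passed once a trend of fold change on transcript length was subtracted, or without a filter on low values. For Clic5, Spock2, Ager and Emp2, which did not pass, the authors' deposited table gives -0.98 ± 0.42, -0.65 ± 0.26, -0.44 ± 0.37 and -0.23 ± 0.19. Over all tested genes 52.7% of values were positive. The 12 type 1 values and the 10 type 2 values had opposite signs throughout, but genes of 1 list are not independent observations. The difference in sign was not tested, since no list can be scored per library here.

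Genes listed as shared by lung epithelium had log2 fold changes on both sides of 0, from -0.37 to 1.28, with SEs from 0.29 to 1.25. Of 19 tested, none passed, and over the 20 found the median log2 fold change was 0.04. The cadherin Cdh1 and the keratins Krt7 and Krt19 are listed by the authors' deposited table at -0.37 ± 0.42, -0.37 ± 0.29 and -0.17 ± 0.30 (log2 fold change and SE). The claudin Cldn3 and the factor Ehf, both with implied CVs above 65%, are listed by the authors' deposited table at 0.92 ± 1.02 and 1.28 ± 1.25. Of 10 tested airway genes 1 fell, beside 3.92% of all tested genes, the mucin Muc5b, which the authors' deposited table gives at -1.26 ± 0.35 (adjusted p = 0.0106) with a mean normalized count of 71.1. Muc5b no longer passed once the length trend was subtracted. For Bpifb1, Sec14l3, Cyp2f2 and the club cell secretoglobin Scgb1a1, which did not pass, the authors' deposited table gives -1.95 ± 0.71, -0.87 ± 0.44, -0.47 ± 0.45 and 0.25 ± 0.71. Sec14l3 had a mean normalized count of 12155, against 6098 for Scgb1a1 and 121 for Foxj1 of the same list. Whether its RNA came from airway cells was not tested.

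Macrophages take up surfactant in the air spaces, and their markers were read beside the type 2 genes. Of 14 macrophage genes, 12 were tested and none passed. Positive values were found for 12 of the 14, beside 52.7% of all tested genes, and the median log2 fold change was 1.12. The summed implied level was 25569 in Control and 62762 in HhipCKO, and most of it was Lyz2, a lysozyme that mouse type 2 cells make too. Lyz2 is listed by the authors' deposited table at 1.53 ± 1.35 (log2 fold change and SE), with an implied CV of 133%. Without Lyz2 the sums were 6097 and 6418, of which Csf1r, the receptor for the macrophage growth factor, made up 3689 and 2445. Without both genes, a choice made after the values were seen, they were 2408 and 3972. The alveolar macrophage markers Marco, Ear1 and Siglecf had low mean normalized counts of 51.2, 20.8 and 13.3 in the authors' deposited table, and none of the 14 genes was at 0. The log2 fold changes of Marco, Ear1 and Siglecf were 2.22 ± 2.38, 2.50 ± 1.62 and 1.11 ± 2.09 (SE) by the authors' deposited table, with Ear1 and Siglecf below its filter. Car4, Plet1 and Mrc1 of the same list are given there at -0.32 ± 0.68, 0.11 ± 0.32 and 0.10 ± 0.43. Their mean normalized counts were 76.2, 851 and 197. For Chil3, Adgre1, Krt79 and Csf1r the authors' deposited table gives 1.36 ± 1.03, 1.66 ± 0.87, 1.13 ± 0.43 and -0.59 ± 0.39. The part of macrophages in the type 2 values was not tested.

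Endothelial genes, as a list for another cell type removed in the sort, had a median log2 fold change of -0.37 over the 10 found, and none of 9 tested passed. Pecam1 and Kdr are listed by the authors' deposited table at -0.40 ± 0.25 and -0.23 ± 0.34 (log2 fold change and SE), and Cdh5, Tie1 and Tek at -0.73 ± 0.37, -0.77 ± 0.49 and 0.05 ± 0.34. Kdr and Tek had mean normalized counts of 6275 and 5344, against 816 for Pecam1 and 466 for Cdh5. Whether the RNA of Kdr and Tek came from endothelial cells was not tested. The mesenchymal list had a median of -0.11, and the authors' deposited table gives Tcf21 at 0.52 ± 0.28, Cspg4 at -0.45 ± 0.25 and Pdgfrb at -0.31 ± 0.17. The collagen genes Col1a1, Col1a2 and Col3a1 had implied CVs of 19.7, 18.8 and 17.9%.

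**Figure D4:**
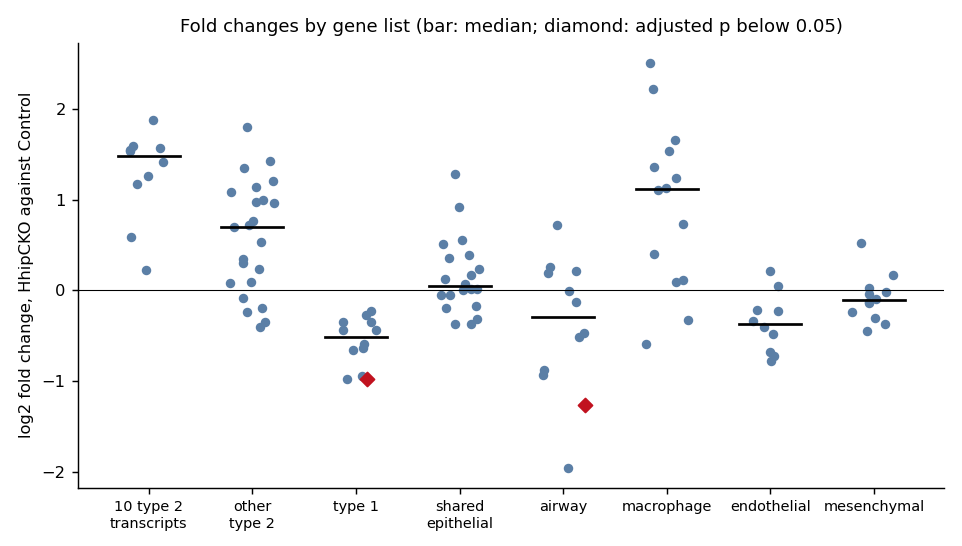
Log2 fold change of each gene of 8 lists, HhipCKO against Control, from the authors' deposited table (points; the bar is the list's median, and diamonds mark an adjusted p below 0.05). The 10 type 2 transcripts lie between 0.22 and 1.87 and the 12 type 1 genes between -0.98 and -0.23, and the diamonds are Akap5 and Muc5b.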

How the data were processed

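RNA of sorted lung mesenchymal cells was sequenced in 4 HhipCKO and 4 Control libraries. A detail of the HhipCKO genotype is not reported here. The submitters' processing notes name FastQC, STAR, DESeq and GRCm38 (mm10); versions, the annotation, the counting tool and its strand setting are not given in the sources used here. Per the file headers, the deposited table gives for each gene the signal averaged over the 8 libraries as a normalized count, the log2 ratio of HhipCKO to Control and its SE (log2 scale), the Wald statistic, which is a score, and the p-value before and after adjustment. It holds no values per library, so depth per library is unknown, and planned tests on such values could not be run; the authors' Wald test was used at an adjusted p of 0.05. Adjusted p-values in the deposited table exist for 17469 genes, none with a mean under 42.1.

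Folds and 95% intervals were computed from the log2 fold change and SE under a normal distribution. Group means and the dispersion behind each SE were solved from the deposited mean, fold change and SE for 4 libraries a group, taking size factors as equal; the largest dispersion found among tested genes was 10.0, the usual ceiling of such fits. These steps were tried on simulated counts whose known dispersion was supplied to the fit. The recovery of changed genes was tried on fold changes simulated from the deposited SEs. Neither simulation covers the authors' own estimation of dispersion. Transcript lengths and coordinates came from GENCODE M21 (31509 identifiers matched). Alternatives were no filter, a mean count of at least 500, median-centred fold changes, a lowess trend on log10 transcript length with a span of 0.3 removed (statsmodels 0.14.6, Python 3.11.15), a threshold of 0.1 and the median transcript length. The members and lists were chosen with earlier results of these data known, and 117 of 118 list entries were found, Siglecf through its gene identifier. Genes given with values are the 10 members, Hhip and the sort genes. From each other list they are the 3 with the smallest adjusted p and the 3 with the highest mean count. Exceptions are Pdgfra, Car4, Plet1 and Mrc1, genes named as such and marker genes at low counts.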

Additional observations from a re-analysis of the deposited data

How the results depend on the processing

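None of the 10 type 2 genes passed under any of the 5 alternatives run on the fold changes, all 10 stayed positive, and the lowest adjusted p was 0.453, with genes of a mean count of at least 500. With the length trend removed their log2 fold changes ran from 0.37 to 1.75, and with median-centred fold changes from 0.20 to 1.85. The type 1 count of 1 lower gene became 0 without a filter on low values and with the length trend removed. The airway count of 1 lower gene became 0 at a mean count of at least 500, where Muc5b is left out, and 0 with the length trend removed, and it became 2 at a threshold of 0.1, where 1 macrophage gene also passed as higher. Without the length trend the medians of the shared epithelial and mesenchymal lists changed sign, to -0.013 and 0.015, and the cause was not tested. Genes called in all fell from 1219 to 544 with that trend removed and rose to 1971 at a threshold of 0.1. The median transcript length moved the level per kilobase of Abca3 to 3536, of Napsa to 4749 and of Epcam to 725 by more than their implied spread. Leaving out replicates was not run, since the table holds no values per library. No paired analysis was possible because the table holds no columns that carry the replicate numbers of the labels. Whether 1 HhipCKO library or several carry the higher values of the 10 genes cannot be read from the table.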

Other observations

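Few abundant genes had errors as wide as the surfactant genes. Of 12037 tested genes averaging 500 normalized counts or more, 44 had an SE at or above that of Sftpc, 0.366% of them, in the authors' deposited table. Besides 8 of the 10 type 2 genes these were 4 genes of the further type 2 list, 12 immunoglobulin genes and 20 others, a set chosen after its values were seen. The fold changes of 16 genes lay, together with their SE, within the range of those 8 genes. Beyond the 8 they were Egfl6 and Acoxl of the further type 2 list, the lysozymes Lyz2 and Lyz1, the chitinase Chia1, the transporter Slco4c1 and the immunoglobulin segments Igkv8-30 and Ighv1-53. Lyz1 stood at 1.21 ± 1.35 and Chia1 at 1.46 ± 1.34 (log2 fold change, SE) in the authors' deposited table. Lyz1 and Lyz2 are near-identical copies, and reads may have been split between them.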
